A study of Homo sapiens with 8 samples.

Results

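The 32 genes described here encode subunits, kinases and phosphatases of the pyruvate dehydrogenase complex, enzymes of the citrate cycle, pyruvate carboxylase, a malic enzyme, and enzymes that exchange glutamate carbon with the cycle. They were chosen by symbol. All 32 were found among the 13453 genes of the deposited expression table, and all 32 were among the 11427 genes tested. RNA-seq was performed on Jurkat cells, an established human T-acute lymphoblastic leukemia (T-ALL) line, to compare cells with and without CBAP, the product of the gene TMEM102. The 8 libraries fell into 4 conditions with 2 libraries each and formed an shRNA set and a CRISPR set of 4 libraries. In the shRNA set, sh-Ctrl cells carried a control shRNA and CBAP knockdown cells an shRNA against CBAP. In the CRISPR set, every library came from cells in which CBAP had been knocked out with CRISPR/Cas9. The CBAP-reconstituted cells expressed a CBAP-GFP fusion on that background, and the CBAP knockout cells expressed GFP. The control of the CRISPR set was therefore a rescued knockout line, and unedited Jurkat cells were not analysed here in that set. The series calls these lines clones, and the labels do not say whether the libraries of a condition came from separate clones or cultures. The p-values below thus measure only the spread between these libraries, which may be technical, and a difference between clones cannot be told apart from one due to CBAP.

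Pyruvate dehydrogenase joins glycolysis to the citrate cycle: its E1 component (PDHA1, PDHB), E2 component (DLAT) and E3-binding protein (PDHX) convert pyruvate to acetyl-CoA inside mitochondria. Its kinases switch the complex off by phosphorylation and its phosphatases switch it on again. Citrate synthase, aconitase, the isocitrate and oxoglutarate dehydrogenases, succinyl-CoA ligase, succinate dehydrogenase, fumarase and malate dehydrogenase then oxidise the acetyl group, feed the respiratory chain, and provide carbon skeletons for lipids and amino acids. Glutamate dehydrogenase and the aspartate aminotransferases link the cycle to glutamate and aspartate, a route for glutamine carbon that proliferating T-lineage cells use heavily.

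Expression was given as FPKM, in which the fragments of a gene are already scaled to its exon length and to the fragments mapped in the library. The values carry no read counts, so the depth behind each value is unknown. FPKM summed to between 362082 and 434742 per library, highest in the libraries labelled CBAP-reconstituted, and none of the 32 genes was listed at 0 in any library. TMEM102 itself had FPKM values of 4.07 and 4.74 in sh-Ctrl and of 2.69 and 2.89 in CBAP knockdown cells. It was listed at 0 in both libraries labelled CBAP knockout and also in both labelled CBAP-reconstituted, so the table does not show the restored gene, and the CRISPR conditions are named by their labels throughout. Of 9 T cell markers 8 were in the table, with a summed FPKM between 1470 and 2350 per library, highest in the libraries labelled CBAP knockout. Of 4 B cell markers only CD79A was listed, at 14.5 and 22.5 in sh-Ctrl, 13 and 15.9 in knockdown, 0.732 and 1.09 in reconstituted and 9.60 and 9.91 in knockout libraries. No myeloid or erythroid marker was in the table, and COL1A1, the only stromal marker listed, had FPKM values of 1.07 to 2.14. The part of these marker differences in the results below was not tested. In bulk RNA a smaller amount of a transcript per cell and fewer cells that make it cannot be told apart.

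The promoters of FH, CS, SDHB and IDH3B are printed as examples. For 11 of the 32 genes, these 4 among them, both libraries labelled CBAP-reconstituted lay above all 6 others. Of all tested genes 29.7% did so. The 4 were picked from the 11, and a link between this pattern and the letters marked below was not tested. The sequences are those of RefSeq (table of GRCh38.p14), placed on GRCh37 by an exact match and restricted to bases upstream of the gene that lie in no annotated exon. Capitals mark a CCAAT box (CCAAT, or ATTGG on the other strand) in FH and CS and the core of an ETS family site (CCGGAAG) in SDHB and IDH3B.
FH, chr1:241683100-241683305, minus strand: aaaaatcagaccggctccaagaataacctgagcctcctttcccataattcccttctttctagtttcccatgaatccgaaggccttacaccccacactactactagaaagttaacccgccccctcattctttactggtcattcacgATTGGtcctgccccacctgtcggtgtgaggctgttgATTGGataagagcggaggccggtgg
CS, chr12:56694176-56694364, minus strand: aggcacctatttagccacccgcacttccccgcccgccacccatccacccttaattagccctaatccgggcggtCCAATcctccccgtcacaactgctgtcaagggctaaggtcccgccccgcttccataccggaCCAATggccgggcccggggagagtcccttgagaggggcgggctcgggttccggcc
SDHB, chr1:17380528-17380777, minus strand: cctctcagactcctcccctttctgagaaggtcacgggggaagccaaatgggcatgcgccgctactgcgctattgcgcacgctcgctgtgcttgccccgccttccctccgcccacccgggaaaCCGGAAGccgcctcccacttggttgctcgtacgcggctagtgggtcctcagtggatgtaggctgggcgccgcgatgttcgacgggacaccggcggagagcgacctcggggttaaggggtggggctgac
IDH3B, chr20:2644866-2644997, minus strand: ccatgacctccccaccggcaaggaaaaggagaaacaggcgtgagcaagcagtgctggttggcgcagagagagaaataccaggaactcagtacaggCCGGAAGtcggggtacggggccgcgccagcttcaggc
RefSeq promoters were matched for 29 of the 32 genes, and the 250 bases before each start were searched on both strands for 4 motifs, each counted on its own. A CCAAT box was found in 13 of the 29 (44.8%), against 33% of 27305 promoters in all. The ETS letters CCGGAAG were found in 7 of the 29 (24.1%), against 8.82% of all promoters. The E-box CACGTG was found in 2, those of PDHB and PDP2 (6.9% against 6.49%). The NRF1 motif was found in 1, that of SDHD (3.45% against 1.13%). These matches describe the letters in the windows only, and factor binding was not measured.

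Per length, MDH2, IDH2 and MDH1 were the most abundant of the 32 transcripts. The mean FPKM over the 8 libraries was 179 for MDH2, 178 for IDH2 and 150.4 for MDH1, and 96.5% or more of the tested genes lay below each of them. None of these places was distinct, since the libraries of MDH2, IDH2 and MDH1 overlapped. The regulators of pyruvate dehydrogenase formed the lower end, with mean FPKM values of 11 for PDK2, 9.24 for PDP2, 6.79 for PDP1 and 4.58 for PDK3, and pyruvate carboxylase (PC) lay between the latter 2 at 5.97. The plot of levels by library shows this order. Together the 32 genes made up 4.26 to 4.51 per mille of the FPKM sum in sh-Ctrl, 3.92 and 3.95 in CBAP knockdown, 4.27 and 4.30 in the libraries labelled CBAP-reconstituted, and 3.73 and 3.76 in those labelled CBAP knockout. The share was therefore lower in both libraries of the CBAP-deficient condition of each set, and the libraries did not overlap. With 2 libraries against 2 an exact permutation test of such a sum cannot give a two-sided p below 0.333.

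**Figure D1:**
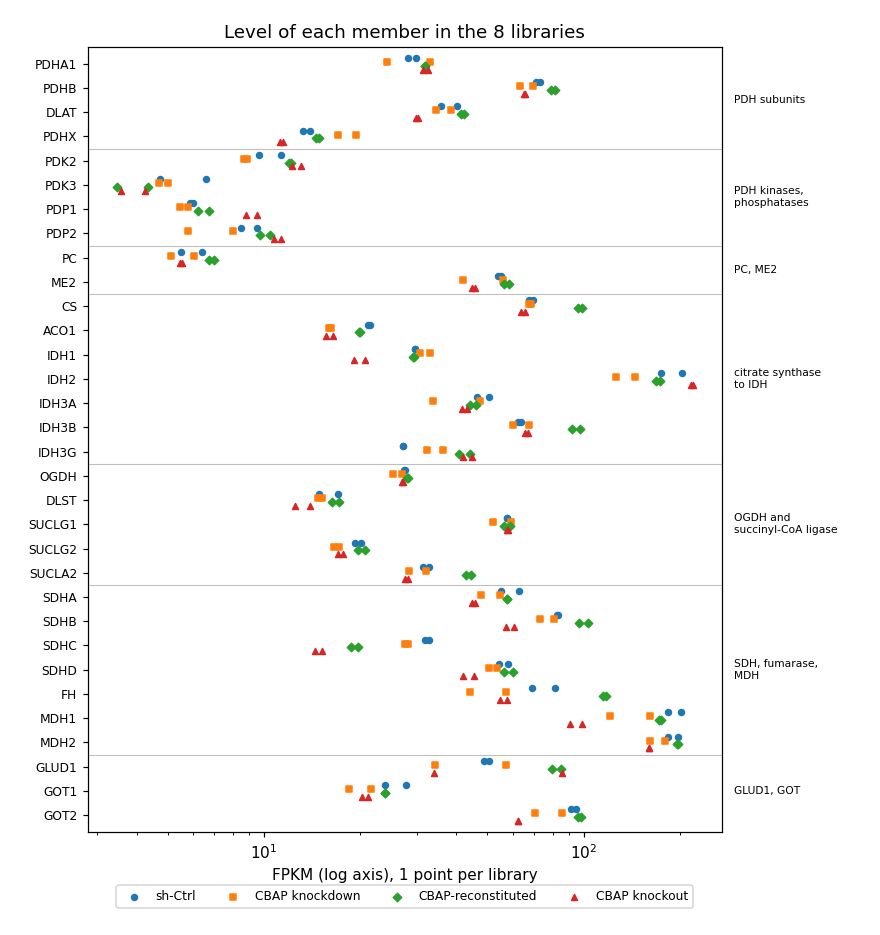
FPKM (log axis) of each of the 32 genes in each of the 8 libraries, 1 point per library, with colour and shape for the 4 conditions and genes in order of their role. MDH2, IDH2 and MDH1 lie at the upper end and the kinases and phosphatases of pyruvate dehydrogenase at the lower end, and the libraries of a condition lie farthest apart for GLUD1, in the knockdown and knockout conditions.

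The sets were then tested apart. On the scale of log2(FPKM + 1), limma called 3 of the 32 genes at an adjusted p under 0.05 in the shRNA set. ACO1 and IDH2 were lower and PDHX was higher in CBAP knockdown cells, where 8.7% of all tested genes were called lower and 3.62% higher. In the CRISPR set 20 of the 32 were called, 18 lower and 2 higher in the libraries labelled CBAP knockout, against 25.9% lower and 23.9% higher among all tested genes. The median log2 change of the 32 was -0.14 in the shRNA set, where that of all tested genes was -0.06, and -0.31 in the CRISPR set, where that of all tested genes was 0. Of the 32, 28 lay below 0 with shRNA and 24 with CRISPR, where 6844 and 5655 of the 11427 tested genes did. Quantile normalization changed the split of the calls to 1 lower and 2 higher (shRNA) and to 15 lower and 4 higher (CRISPR), and median-ratio scaling to 2 lower and 2 higher (shRNA). An unadjusted p under 0.05 was reached by 11 genes in the shRNA set and by 22 in the CRISPR set, as it was by 30.3% and 57.1% of all tested genes. Without regard to a test, both knockdown libraries lay below both sh-Ctrl libraries for 17 genes (33.2% of all tested genes did) and above them for 3 (17.4%). Both libraries labelled CBAP knockout lay below both labelled CBAP-reconstituted for 23 genes (42.7%) and above them for 4 (43%). ACO1 was the 1 gene called lower in both sets, while PDHX and IDH2 were called in opposite directions. For 9 of the 32 genes the test of the difference between both changes passed, as it did for 33.8% of all tested genes, and 7 of the 9 had the more negative change in the CRISPR set.

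**Figure D2:**
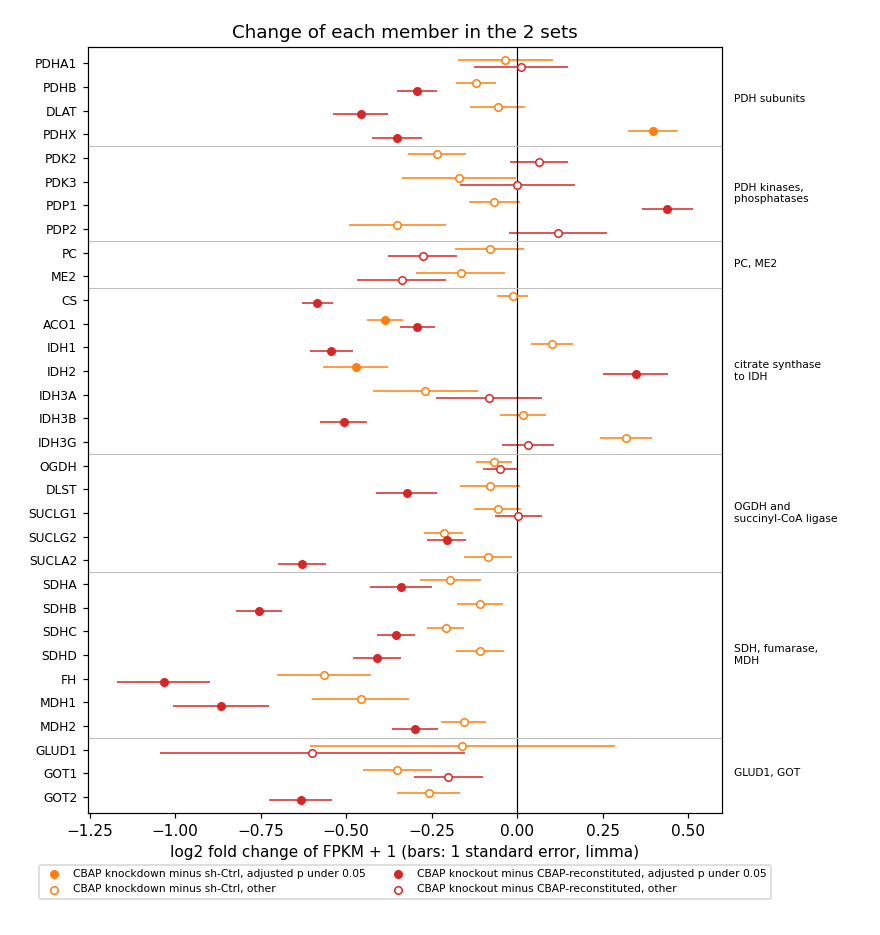
Change of each gene on the log2(FPKM + 1) scale (limma estimate, bars 1 standard error) in CBAP knockdown against sh-Ctrl and in the libraries labelled CBAP knockout against CBAP-reconstituted, with filled points for an adjusted p under 0.05. The 7 succinate dehydrogenase, fumarase and malate dehydrogenase genes are all filled and left of 0 in the CRISPR set, and FH has the most negative change in both sets.

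Among the 4 subunits of pyruvate dehydrogenase, 1 was called higher with the shRNA libraries (3.62% of all tested genes were). With the CRISPR libraries 3 were called lower (25.9% of all tested genes were). PDHX, the E3-binding protein, had FPKM values of 13.2 and 13.9 in sh-Ctrl and of 17.1 and 19.4 in CBAP knockdown cells. It had 14.6 and 14.8 in the libraries labelled CBAP-reconstituted and 11.2 and 11.4 in those labelled CBAP knockout. Both knockdown libraries were thus the highest of all 8 and both knockout libraries the lowest. PDHX rose by 0.40 ± 0.07 (SE, log2 scale, limma adjusted p = 0.0273) in the shRNA set and fell by 0.35 ± 0.07 (limma adjusted p = 0.0108) in the CRISPR set, and the changes differed by 0.75 ± 0.10 (limma adjusted p = 0.00478). DLAT, the E2 acetyltransferase, had 35.7 and 40.2 in sh-Ctrl against 34.4 and 38.5 in knockdown cells, which overlapped. It had 41.2 and 42.2 in the reconstituted against 29.9 and 30.3 in the knockout libraries, a fall by 0.46 ± 0.08 (limma adjusted p = 0.00584). The difference of 0.40 ± 0.11 between the sets passed for DLAT (limma adjusted p = 0.0427). PDHB, the beta subunit of E1, had 73.1 and 70.9 in sh-Ctrl, 63.0 and 69.4 in knockdown, 79.2 and 81.2 in reconstituted and 65.0 and 65.6 in knockout libraries. It fell in the CRISPR set by 0.29 ± 0.06 (limma adjusted p = 0.00927), while its change of -0.12 in the shRNA set did not pass (limma adjusted p = 0.234). PDHA1, the alpha subunit of E1 that carries the regulatory phosphorylation sites, ranged from 24.3 to 33.1 and overlapped in both sets. The PDHX rise was lost in 8 of 17 alternatives (limma adjusted p up to 0.229, with the shRNA set fitted alone), among them the replicate block and leaving out either sh-Ctrl library or any library of the CRISPR set. In the CRISPR set PDHX and PDHB lost their call without either reconstituted library or knockout replicate 1 (limma adjusted p up to 0.0731 and 0.066), and PDHB also under quantile normalization, which moved its change to -0.08 (limma adjusted p = 0.178).

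The 4 regulators of the complex that are among the 32 gave 1 call, a rise in the CRISPR set, where 23.9% of all tested genes were called higher. PDP1, a catalytic subunit of the phosphatase that reactivates pyruvate dehydrogenase, had FPKM values of 5.99 and 5.88 in sh-Ctrl and of 5.47 and 5.78 in CBAP knockdown cells. It had 6.20 and 6.74 in the libraries labelled CBAP-reconstituted and 8.76 and 9.51 in those labelled CBAP knockout. PDP1 rose in the CRISPR set by 0.44 ± 0.07 (limma adjusted p = 0.00512), and the change differed from that of -0.07 in the shRNA set by -0.51 ± 0.10 (limma adjusted p = 0.0168). The related phosphatase PDP2 had 9.50 and 8.45 in sh-Ctrl, 5.79 and 7.99 in knockdown, 10.4 and 9.71 in reconstituted and 10.8 and 11.3 in knockout libraries. PDK2, a kinase that inactivates the complex, had 11.3 and 9.64 in sh-Ctrl, 8.83 and 8.64 in knockdown, 12.0 and 12.2 in reconstituted and 12.3 and 13.1 in knockout libraries. For PDP2 and PDK2 the libraries did not overlap in either set and lay in opposite directions. Of all tested genes 33.2% lay lower without overlap in the shRNA set and 43% higher in the CRISPR set. No change of PDP2 or PDK2 passed, nor did the difference between the sets (limma adjusted p = 0.126 and 0.109). The kinase PDK3 ranged from 3.46 to 6.58 and overlapped in both sets. PDK2, PDP1, PDP2 and IDH2 were the 4 genes for which both knockdown libraries lay below all 6 others, as 18.2% of all tested genes did. The same 4 were those for which both knockout libraries lay above all 6 others, as 31.4% of all tested genes did, a pattern picked out after the values were seen. PC, which makes oxaloacetate from pyruvate, had -0.08 in the shRNA and -0.28 in the CRISPR set, and ME2, the mitochondrial malic enzyme, -0.16 and -0.34. Neither was called in either set (limma adjusted p 0.0674 or more). Both knockout libraries lay below both reconstituted ones for each, as they did for 42.7% of all tested genes. In the CRISPR set PC gained a call in 4 of 17 alternatives and ME2 in 5.

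Citrate synthase to isocitrate dehydrogenase gave 2 calls among 7 genes with the shRNA libraries, both lower (8.7% of all tested genes were). With the CRISPR libraries 4 were called lower and 1 higher, against 25.9% and 23.9% of all tested genes. CS, which condenses acetyl-CoA with oxaloacetate, had FPKM values of 67.6 and 69.4 in sh-Ctrl and of 68.5 and 67.3 in CBAP knockdown cells. It had 98.9 and 95.7 in the libraries labelled CBAP-reconstituted and 63.7 and 65.4 in those labelled CBAP knockout. The sh-Ctrl, knockdown and knockout libraries thus lay between 63.7 and 69.4, and the reconstituted libraries stood above them. CS fell by 0.58 ± 0.05 (limma adjusted p = 0.000342) in the CRISPR set, to 0.663 of the reconstituted mean, against -0.01 in the shRNA set, and the difference of 0.57 ± 0.06 passed (limma adjusted p = 0.00239). IDH3B, the beta subunit of the NAD-dependent isocitrate dehydrogenase, was likewise highest in the reconstituted libraries, with 62.1 and 63.7 in sh-Ctrl, 60.1 and 67.4 in knockdown, 91.7 and 97.2 in reconstituted and 65.4 and 66.8 in knockout libraries. It fell by 0.51 ± 0.07 in the CRISPR set (limma adjusted p = 0.00219), and the difference between the sets was 0.52 ± 0.10 (limma adjusted p = 0.0112). Neither of its partner subunits was called. IDH3A, the catalytic alpha subunit, ranged from 33.7 to 50.6 with changes of -0.27 and -0.08, and IDH3G, the gamma subunit, had 27.2 and 27.3 in sh-Ctrl, 32.3 and 36.3 in knockdown, 40.7 and 43.9 in reconstituted and 44.6 and 41.9 in knockout libraries. IDH3G lay at 0.32 ± 0.08 in the shRNA set, just outside the threshold (limma adjusted p = 0.0509), and at 0.03 in the CRISPR set.

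Among the cytosolic aconitase and the NADP-dependent isocitrate dehydrogenases, calls were made in both directions. ACO1, the cytosolic aconitase that also serves as an iron-responsive RNA-binding protein, had FPKM values of 21.5 and 21.1 in sh-Ctrl and of 16.2 and 15.9 in CBAP knockdown cells. It had 20.0 and 19.8 in the libraries labelled CBAP-reconstituted and 16.5 and 15.7 in those labelled CBAP knockout. Both CBAP-deficient conditions lay between 15.7 and 16.5 and both controls between 19.8 and 21.5, so the libraries did not overlap in either set or across them. ACO1 fell by 0.39 ± 0.05 (limma adjusted p = 0.0126) in the shRNA set and by 0.29 ± 0.05 (limma adjusted p = 0.00585) in the CRISPR set, and a difference between these was not detected (-0.09 ± 0.07, limma adjusted p = 0.359). IDH1, the cytosolic NADP-dependent enzyme, had 29.6 and 29.7 in sh-Ctrl, 30.7 and 33.1 in knockdown, 29.5 and 29.3 in reconstituted and 20.6 and 19.2 in knockout libraries. IDH1 fell by 0.54 ± 0.06 in the CRISPR set (limma adjusted p = 0.00124), where its change of 0.10 in the shRNA set did not pass, and the changes differed by 0.65 ± 0.09 (limma adjusted p = 0.00443). IDH2, its mitochondrial counterpart, had 202 and 175 in sh-Ctrl, 145 and 126 in knockdown, 168 and 174 in reconstituted and 219 and 216 in knockout libraries. IDH2 fell by 0.47 ± 0.10 in the shRNA set (limma adjusted p = 0.0334) and rose by 0.35 ± 0.10 in the CRISPR set (limma adjusted p = 0.0275). The difference of -0.82 ± 0.13 between these changes was the most negative of the 32 (limma adjusted p = 0.008). The IDH2 fall was lost in 10 of 17 alternatives (limma adjusted p up to 0.223, with the shRNA set fitted alone), among them the replicate block, both other scalings and the omission of sh-Ctrl replicate 1, knockdown replicate 2 or any CRISPR library. The IDH2 rise was lost under median-ratio scaling and without any 1 of the 4 CRISPR libraries (limma adjusted p up to 0.13). In the shRNA set ACO1 lost its call with that set fitted alone (limma adjusted p = 0.187), with the replicate block (0.0902) and without either reconstituted library (up to 0.0568), and it lost its call without reconstituted replicate 1 in the CRISPR set (limma adjusted p = 0.0518).

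**Figure D3:**
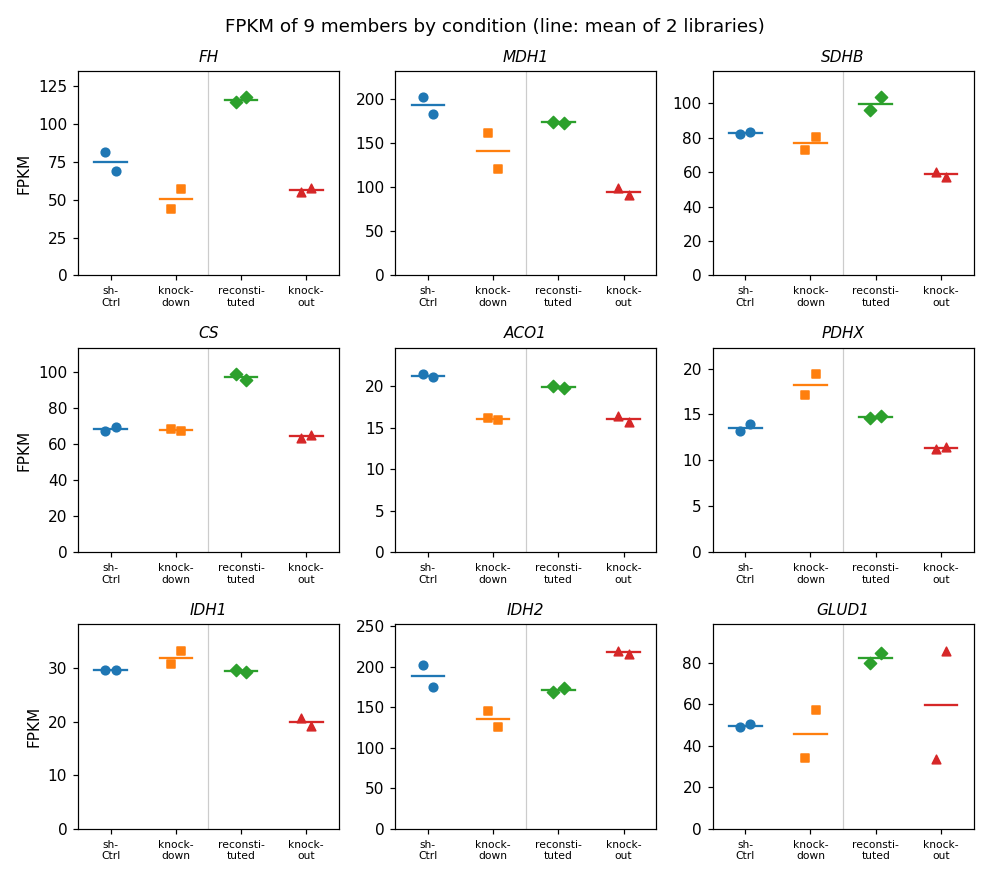
FPKM of 9 genes by condition, 1 point per library and a line at the mean of the 2 libraries, with each vertical axis starting at 0 and the shRNA set to the left of the grey line. CS, FH and SDHB stand high in the libraries labelled CBAP-reconstituted, ACO1 is low in both CBAP-deficient conditions, PDHX, IDH1 and IDH2 move differently in the sets, and GLUD1 is split between its 2 knockout libraries.

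Oxoglutarate dehydrogenase and succinyl-CoA ligase gave no call in the shRNA set. In the CRISPR set 3 of the 5 genes were called lower, against 25.9% of all tested genes. SUCLA2, the beta subunit of the ADP-forming succinyl-CoA ligase, had FPKM values of 31.5 and 32.8 in sh-Ctrl, 28.5 and 32.1 in CBAP knockdown, 42.8 and 44.6 in reconstituted and 27.5 and 28.2 in knockout libraries. It fell by 0.63 ± 0.07 in the CRISPR set (limma adjusted p = 0.00118), and the change differed from that of -0.08 in the shRNA set by 0.54 ± 0.10 (limma adjusted p = 0.011). SUCLG2, the beta subunit of the GTP-forming enzyme, had 20.1 and 19.3 in sh-Ctrl, 17.1 and 16.5 in knockdown, 19.7 and 20.7 in reconstituted and 17.1 and 17.7 in knockout libraries. Its changes were -0.21 in each set, with SE 0.06, and passed in the CRISPR set only (limma adjusted p = 0.0285 against 0.0664), with no difference between the sets detected (limma adjusted p = 0.943). SUCLG1, the alpha subunit that both enzymes share, ranged from 52.0 to 59.1, with changes of -0.06 and 0.00. DLST, the E2 component of oxoglutarate dehydrogenase, had 17.0 and 14.8 in sh-Ctrl, 14.8 and 15.2 in knockdown, 17.2 and 16.4 in reconstituted and 14.0 and 12.5 in knockout libraries, and fell by 0.32 ± 0.09 in the CRISPR set (limma adjusted p = 0.0272). OGDH, the E1 component, varied least, from 25.3 to 28.2 over all 8 libraries. SUCLG2 lost its call in 7 of 17 alternatives (limma adjusted p up to 0.167), including the omission of any CRISPR library, and DLST in 4 (limma adjusted p up to 0.141), including the omission of either reconstituted library or knockout replicate 2.

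Succinate dehydrogenase, fumarase and malate dehydrogenase were the steps at which every gene was called in the CRISPR set. In the libraries labelled CBAP knockout 7 of 7 were lower, with a median of -0.41, against 25.9% of all tested genes called lower. In the shRNA set all 7 lay below 0, as did 6844 of the 11427 tested genes, and the median of the 7 was -0.20. After adjustment 0 of 7 passed, with 3 at an unadjusted p under 0.05 by limma (30.3% of all tested genes). FH, fumarase, had FPKM values of 81.4 and 68.9 in sh-Ctrl and of 44.2 and 57.2 in CBAP knockdown cells. It had 115 and 118 in the reconstituted and 54.9 and 57.5 in the knockout libraries, a mean of 116 ± 2.18 against 56.2 ± 1.89 (SD, n = 2). The libraries did not overlap in either set, and the controls of the sets stood apart from each other. FH fell by 1.03 ± 0.14 in the CRISPR set (limma adjusted p = 0.00214), to 0.484 of the reconstituted mean, the largest change among the 32. FH in the shRNA set lay at -0.57 ± 0.14, or 0.675 of the sh-Ctrl mean, just outside the threshold (limma adjusted p = 0.0525). MDH1, the cytosolic malate dehydrogenase of the malate-aspartate shuttle, had 202 and 183 in sh-Ctrl, 162 and 120.5 in knockdown, 174 and 172 in reconstituted and 98.7 and 90.8 in knockout libraries. MDH1 fell by 0.87 ± 0.14 in the CRISPR set (limma adjusted p = 0.00449), to 0.546 of the reconstituted mean, and lay at -0.46 ± 0.14 in the shRNA set (limma adjusted p = 0.0913). For neither FH nor MDH1 was a difference between the sets detected (limma adjusted p = 0.116 and 0.169). MDH2, the mitochondrial enzyme of the cycle, had 197 and 183 in sh-Ctrl, 162 and 179.6 in knockdown, 197.5 and 196 in reconstituted and 159.9 and 159.8 in knockout libraries, and fell by 0.30 ± 0.07 in the CRISPR set (limma adjusted p = 0.0135).

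The 4 subunits of succinate dehydrogenase, which is also complex II of the respiratory chain, fell together in the CRISPR set but from unlike starting levels. SDHB, the iron-sulphur subunit, had FPKM values of 82.4 and 83.1 in sh-Ctrl and of 73.2 and 80.5 in CBAP knockdown cells. It had 96.4 and 103.5 in the libraries labelled CBAP-reconstituted and 60.3 and 57.2 in those labelled CBAP knockout. The reconstituted libraries were the highest of the 8 and the knockout libraries the lowest. SDHB fell by 0.75 ± 0.07 (limma adjusted p = 0.000545), and the change differed from that of -0.11 in the shRNA set by 0.65 ± 0.10 (limma adjusted p = 0.00566). SDHA, the flavoprotein subunit, had 62.9 and 55.0 in sh-Ctrl, 47.9 and 54.8 in knockdown, 57.6 and 57.4 in reconstituted and 45.7 and 44.7 in knockout libraries, with a fall by 0.34 ± 0.09 (limma adjusted p = 0.0242). SDHC, a membrane anchor, had 32.8 and 31.97 in sh-Ctrl, 28.3 and 27.5 in knockdown, 19.7 and 18.8 in reconstituted and 14.5 and 15.2 in knockout libraries. SDHC therefore differed more between the sets than within them, with all 4 CRISPR libraries below all 4 shRNA libraries, and fell by 0.35 ± 0.05 within the CRISPR set (limma adjusted p = 0.00362). SDHD, the other membrane anchor, had 54.3 and 58.0 in sh-Ctrl, 53.6 and 50.4 in knockdown, 60.1 and 56.3 in reconstituted and 41.8 and 45.3 in knockout libraries, with a fall by 0.41 ± 0.07 (limma adjusted p = 0.00539). In the shRNA set both knockdown libraries lay below both sh-Ctrl libraries for each of these subunits, as they did for 33.2% of all tested genes. The changes were -0.20 for SDHA, -0.11 for SDHB, -0.21 for SDHC and -0.11 for SDHD, and none of them passed. SDHA and MDH2 lost their call in 6 of 17 alternatives each (limma adjusted p up to 0.147 and 0.172), including the omission of any CRISPR library and quantile normalization, which moved SDHA to -0.18 and MDH2 to -0.10. The other 5 genes of these steps kept theirs in all 17.

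Among the 3 genes that link the cycle to glutamate, GOT2 was called lower in the CRISPR set, as were 25.9% of all tested genes. GOT2, the mitochondrial aspartate aminotransferase, had FPKM values of 91.5 and 94.3 in sh-Ctrl, 70.3 and 85.3 in CBAP knockdown, 98.2 and 96.1 in reconstituted and 62.4 and 62.2 in knockout libraries. It fell by 0.63 ± 0.09 in the CRISPR set (limma adjusted p = 0.0029), to 0.641 of the reconstituted mean, and its change of -0.26 ± 0.09 in the shRNA set did not pass (limma adjusted p = 0.126). GOT1, the cytosolic aminotransferase, had 27.8 and 23.9 in sh-Ctrl, 18.5 and 21.6 in knockdown, 23.9 in each reconstituted and 21.1 and 20.2 in knockout libraries. The libraries of GOT1 did not overlap in either set, but neither -0.35 in the shRNA set nor -0.20 in the CRISPR set passed (limma adjusted p = 0.0794 and 0.148). GLUD1, which deaminates glutamate to oxoglutarate, was the gene with the least agreement between libraries of a condition. It had 48.9 and 50.6 in sh-Ctrl, 34.3 and 57.3 in knockdown, 79.8 and 84.8 in reconstituted and 33.9 and 85.5 in knockout libraries. Its SE of 0.45 was larger than its change of -0.16 in the shRNA set, and its change of -0.60 in the CRISPR set did not pass (limma adjusted p = 0.307).

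Read across the conditions, the order of the levels was not the same for all genes, and the groups described next were formed after the values were seen. Both libraries labelled CBAP-reconstituted lay above all 6 others for 11 of the 32 genes (PDHB, DLAT, PC, ME2, CS, IDH3B, OGDH, SUCLA2, SDHB, FH and GOT2), as they did for 29.7% of all tested genes. The FPKM sum was also highest in these libraries. Both libraries labelled CBAP knockout lay below all 6 others for 13 genes (DLAT, PDHX, CS, IDH1, DLST, SUCLA2, SDHA, SDHB, SDHC, SDHD, MDH1, MDH2 and GOT2), as they did for 15.3% of all tested genes. DLAT, CS, SUCLA2, SDHB and GOT2 belonged to both lists.

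Ratios of paired enzymes within a library do not change when that library is scaled by 1 factor. Quantile normalization is no such factor and can change them. The ratios below use the FPKM values as given. The FPKM of mitochondrial IDH2 was 6.84 and 5.88 times that of cytosolic IDH1 in sh-Ctrl, 4.73 and 3.80 times in CBAP knockdown, 5.70 and 5.91 times in reconstituted and 10.6 and 11.3 times in knockout libraries. The ratio was thus lowest in both knockdown libraries and highest in both knockout libraries. For malate dehydrogenase, MDH2 over MDH1 was 0.979 and 1 in sh-Ctrl, 1 and 1.49 in knockdown, 1.13 and 1.14 in reconstituted and 1.62 and 1.76 in knockout libraries. For the aspartate aminotransferases, GOT2 over GOT1 was 3.29 and 3.94 in sh-Ctrl, 3.80 and 3.94 in knockdown, 4.10 and 4.01 in reconstituted and 2.95 and 3.07 in knockout libraries. Knockout libraries therefore had the highest ratio of mitochondrial to cytosolic transcript for the isocitrate and malate enzymes and the lowest for the aminotransferases. The ADP-forming over the GTP-forming beta subunit of succinyl-CoA ligase, SUCLA2 over SUCLG2, was 1.56 and 1.70 in sh-Ctrl, 1.66 and 1.94 in knockdown, 2.17 and 2.15 in reconstituted and 1.61 and 1.59 in knockout libraries. The pairs were picked after the values were seen, and the ratios were not tested.

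**Figure D4:**
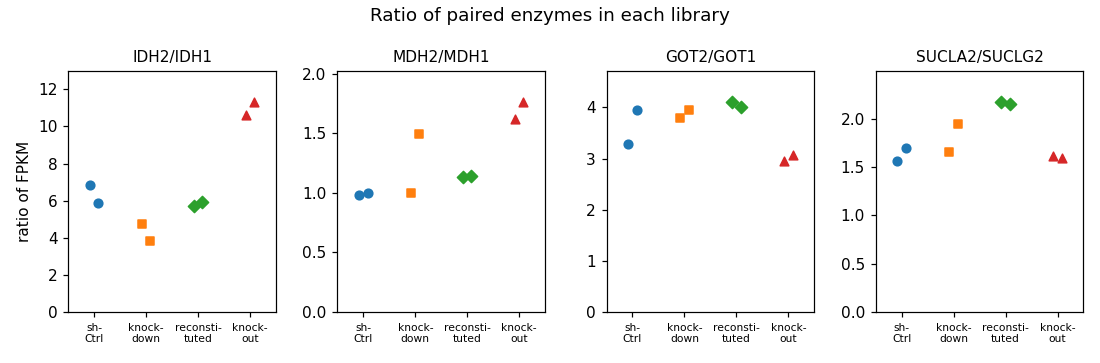
Ratio of the FPKM of paired enzymes in each library (IDH2/IDH1, MDH2/MDH1, GOT2/GOT1 and SUCLA2/SUCLG2), 1 point per library, by condition, with axes starting at 0. The libraries labelled CBAP knockout have IDH2/IDH1 ratios of 10.6 and 11.3, above all others, and the lowest GOT2/GOT1 ratios.

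Of 40 further genes of the same pathways that are not among the 32, 33 were in the table and were tested, and the remaining 7 (PDK4, PDHA2, ME1, ME3, PCK1, GLS2 and GPT) were not analysed here. The shRNA set gave 7 calls lower and 0 higher by limma, where 8.7% and 3.62% of all tested genes were called, with 14 of the 33 at an unadjusted p under 0.05 (30.3% of all). The CRISPR set gave 15 lower and 5 higher, where 25.9% and 23.9% of all were called. Carriers of the inner mitochondrial membrane were among those lower in the CRISPR set. SLC25A11, the oxoglutarate-malate carrier, had 99.0 and 100.7 in the reconstituted against 52.9 and 50.3 in the knockout libraries (-0.94 ± 0.05, limma adjusted p = 8.38e-05), and -0.16 in the shRNA set. SLC25A10, the dicarboxylate carrier, fell in both sets, by 0.35 ± 0.06 (limma adjusted p = 0.0263) and 0.74 ± 0.06 (limma adjusted p = 0.000454), as did SLC25A1, the citrate carrier, by 0.55 ± 0.10 (limma adjusted p = 0.0234) and 0.68 ± 0.10 (limma adjusted p = 0.00257). The aspartate-glutamate carriers SLC25A12 and SLC25A13 fell in the CRISPR set by 0.59 and 0.69 (limma adjusted p = 0.000655 and 0.00272). ACLY, which cleaves exported citrate to cytosolic acetyl-CoA, fell by 0.51 ± 0.04 in the shRNA set (limma adjusted p = 0.00307) and by 0.19 ± 0.04 in the CRISPR set (limma adjusted p = 0.0122).

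The largest called changes among these further genes were rises of ASNS, PCK2 and GLUL in the CRISPR set. GLUL, glutamine synthetase, had FPKM values of 95.8 and 88.3 in sh-Ctrl, 68.8 and 87.0 in CBAP knockdown, 80.0 and 81.7 in reconstituted and 299.5 and 320.4 in knockout libraries, a rise by 1.93 ± 0.12 in the CRISPR set (limma adjusted p = 0.000147). ASNS, asparagine synthetase, which uses glutamine as nitrogen donor, had 5.28 and 4.43 in the reconstituted and 25.1 and 25.5 in the knockout libraries, a rise by 2.17 ± 0.24 (limma adjusted p = 0.00119). PCK2, the mitochondrial phosphoenolpyruvate carboxykinase, had 4.92 and 5.31 against 23.9 and 22.1, a rise by 1.97 ± 0.19 (limma adjusted p = 0.000739). The levels of ASNS in sh-Ctrl were 15.1 and 8.42, and those of PCK2 were 8.75 and 5.40, so these libraries of 1 condition already differed by more than the reconstituted ones did. In the shRNA set none of GLUL, ASNS and PCK2 passed (-0.25, -0.20 and -0.05).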

How the data were processed

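RNA-seq of 8 Jurkat libraries was analysed from 1 table of FPKM values that the authors deposited, in which each column is 1 library. Paired-end reads of 100 bases had been mapped by the authors to hg19 (TopHat 2), and FPKM came from cuffdiff (Cufflinks). How cuffdiff scaled the libraries, the annotation, strand handling and whether the sets were processed together are not given in the sources used here. Conditions were taken from the labels, and columns of other samples numbered 0. FPKM holds no counts, so no count model was used. Genes averaging an FPKM of 1 or more were tested on log2(FPKM + 1), a scale that understates changes of low genes, with limma 3.58.1 (R 4.3.3, a mean for each of the 4 conditions over all 8 libraries, trended empirical Bayes) and p-values adjusted after Benjamini-Hochberg over 11427 genes. The model was tested on simulated data. Every one of the 32 genes was named, and of the further pathway genes the 10 with the smallest adjusted p, of which 1 is not reported here. The genes and lists were chosen with earlier results of these data known. Alternatives covered the pseudocount, filter, scaling, trend, listed zeros, replicate block, each set alone and each library left out, 17 in all for a change within a set. Positions came from GENCODE lifted to GRCh37.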

Additional observations from a re-analysis of the deposited data

Results flagged for a closer look

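For 9 of the 32 genes the change in the shRNA set (CBAP knockdown minus sh-Ctrl) differed from the change in the CRISPR set (libraries labelled CBAP knockout minus CBAP-reconstituted) by limma's test of the difference itself, at an adjusted p under 0.05. The difference, shRNA minus CRISPR on the log2(FPKM + 1) scale, was 0.40 for DLAT, 0.75 for PDHX, -0.51 for PDP1, 0.57 for CS, 0.65 for IDH1, -0.82 for IDH2, 0.52 for IDH3B, 0.54 for SUCLA2 and 0.65 for SDHB. Among all tested genes 33.8% met the same criterion. PDHX and IDH2 were called in each set in opposite directions, and the other 7 were called in the CRISPR set only. Set, kind of control and kind of CBAP loss changed together in this design and cannot be told apart.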

How the results depend on the processing

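The counts of called genes varied with the model, the genes tested, the scaling and the libraries included. The 3 calls of the shRNA set became 0 with the replicate block, 0 with that set fitted alone and 5 with genes holding a listed 0 left out, and ranged from 0 (without either CBAP-reconstituted library) to 11 (without CBAP knockdown replicate 2) when 1 library was left out and its lone partner was assumed to vary like the other conditions. In the CRISPR set the 20 calls became 16 with the replicate block and 23 with that set alone, and ranged from 12 (without CBAP-reconstituted replicate 1) to 22. The 9 differences between the sets became 13 under median-ratio scaling and 8 with the replicate block, and ranged from 5 to 14 with 1 library left out. The labels do not say whether libraries with the same replicate number were paired. The deviations of same-numbered libraries correlated at 0.146 in the shRNA and 0.0239 in the CRISPR set. With 2 libraries per condition these values cannot decide it. Without a filter, with another pseudocount or without the trend the counts stayed within 1.5 times the values given. PDK3 was not tested at a mean FPKM of at least 5.

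Some changes that were not called gained a call in alternatives, among them IDH3G in 5 and FH in 3 of 17 in the shRNA set. Among genes that were not called, some changes crossed 0. Under quantile normalization they became, in the shRNA set, 0.021 for PDHA1, 0.0747 for CS and 0.0437 for SUCLG1, and in the CRISPR set -0.0209 for PDK2, -0.0998 for PDK3, 0.0688 for IDH3A and 0.00533 for OGDH. Under median-ratio scaling they became, in the shRNA set, 0.0346 for PDHA1, 0.013 for DLAT, 0.058 for CS, 0.00175 for OGDH and 0.0131 for SUCLG1. With 1 library left out, changes in the shRNA set ranged from -0.251 to 0.183 for PDHA1, -0.14 to 0.0268 for DLAT, -0.373 to 0.0338 for PDK3, -0.179 to 0.0199 for PC, -0.37 to 0.0406 for ME2, -0.0318 to 0.00683 for CS, -0.0638 to 0.0976 for IDH3B, -0.174 to 0.015 for DLST, -0.148 to 0.034 for SUCLG1 and -0.522 to 0.201 for GLUD1. In the CRISPR set they ranged from -0.0128 to 0.0371 for PDHA1, -0.13 to 0.13 for PDK3, -0.0225 to 0.0843 for IDH3G, -0.0243 to 0.0304 for SUCLG1 and -1.25 to 0.056 for GLUD1. The cause was not tested. The unknown depth and 2 libraries per condition limit what can be detected.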

Other observations

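Some of the 32 genes have near copies whose reads may be shared with them. GLUD2, an intronless relative of GLUD1, had FPKM values of 21.0 in each sh-Ctrl library, 17.4 and 15.1 in CBAP knockdown, 20.5 and 19.9 in the libraries labelled CBAP-reconstituted and 15.5 and 15.2 in those labelled CBAP knockout. It fell by 0.36 ± 0.08 in the shRNA set (limma adjusted p = 0.0377) and by 0.38 ± 0.08 in the CRISPR set (limma adjusted p = 0.00905), with tight libraries where GLUD1 was split. Of the pseudogenes of SDHA, SDHAP1 ranged from 3.23 to 12.0, SDHAP3 was listed at 6.27 and 6.30 in CBAP knockdown cells and at 0 in the other 6 libraries, and SDHAP2 was listed at 0 throughout. GLUD1P3, a pseudogene named for GLUD1, had 1.035 and 0.988 in sh-Ctrl, 0.638 and 0.902 in knockdown, 1.25 and 1.14 in reconstituted and 2.79 and 2.49 in knockout libraries. It rose by 0.73 ± 0.11 in the CRISPR set (limma adjusted p = 0.0031), and its change of -0.19 in the shRNA set did not pass. Pseudogenes named for 14 of the 32 genes are annotated, and 4 of these pseudogenes were in the table. Exons of 17 of the 32 genes overlap exons of another protein-coding or long non-coding RNA gene, in 15 cases on the opposite strand. Reads of such a pair cannot be told apart without strand. SDHB, FH, SDHC, ACO1 and MDH2 are among the genes without such exon overlap on either strand. Overlap within introns or with other types of gene was not examined.

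Of the genes just outside the threshold in the shRNA set, IDH3G (adjusted p = 0.0509 by limma), FH (0.0525), SDHC (0.0631) and SUCLG2 (0.0664) had libraries that did not overlap. Knockdown libraries lay higher for IDH3G, as for 17.4% of all tested genes. They lay lower for the others, as for 33.2% of all tested genes, so the lack of overlap adds little.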
